A study of Mus musculus with 20 samples.

Results

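Liver mRNA from refed male mice carrying the Prox1 K556R knock-in was compared with that of refed wild-type mice. The comparison took every library labelled refed, 10 of the 20 libraries in the series, 5 of them K556R and 5 wild type. In the K556R mice, the lysine of Prox1 that the name K556R gives was changed to arginine in hepatocytes. Cre recombination switched the change on at an age of 8 weeks, and 11 weeks passed before the livers were taken, at Zeitgeber times 15 to 17, with all mice on chow. The other 10 libraries are from fasted mice of both genotypes and enter only where the refed effect is set against the fasted one. The sample titles call the genotypes Ctrl and Cre. The labels name no strain, no promoter driving Cre and no length of refeeding. Whether controls received Cre or carried the unrecombined allele is not given in the sources used here, so an effect of Cre cannot be told apart from one of K556R. The labels put 4 wild-type and 2 K556R refed libraries in batch 1 and 1 wild-type and 3 K556R refed libraries in batch 2, without saying what a batch was. Libraries are named by repeat number and batch, such as 1_b1.

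Prox1 is a homeodomain transcription factor of hepatocytes that works largely as a corepressor, binding nuclear receptors such as HNF4A and LRH1 and bringing histone deacetylases to their target genes. SUMO is a small protein that is joined to lysines of other proteins, often at a hydrophobic residue followed by the lysine, any residue and glutamate. When a fasted animal is refed, insulin and glucose turn on glycolysis and fatty acid synthesis in the liver and turn off gluconeogenesis and fatty acid oxidation.

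The altered codon is shown because the labels define the K556R group by it. It lies in exon 2 of Prox1, a gene on the minus strand of chromosome 1 (190118035 to 190170714, GRCm38, GENCODE M21). The 63 bases below are the wild-type coding strand at chr1:190160549-190160611 in the reference genome, and the capitals mark the lysine codon altered in K556R.
Prox1, the altered codon and 10 codons on each side: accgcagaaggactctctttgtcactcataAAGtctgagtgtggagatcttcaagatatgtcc
The codon before it encodes isoleucine and the codon 2 positions after it glutamate, which is the form of a SUMO acceptor site. Counts per gene do not read this codon, so the levels below cannot tell which allele was expressed.

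Total counts were 35001634 to 50647297 per refed library, and 13525 of 29915 genes passed the filter on low counts. The 10 hepatocyte markers (Alb, Apoa1, Ttr and others) summed to 122523 to 140120 CPM (counts scaled to a common library total by TMM) in every library, with a median log2 change of 0.02 between genotypes. K556R 1_b1 stood apart from the other 9 libraries: it scored 57.2 on principal component 1 (35.8% of the variance) and the others −10.7 to −0.65. Among 7796 genes with a mean of at least 3 log2 CPM, 49 were more than 1 log2 unit above the median of the other 4 K556R libraries and 104 more than 1 below. For the other 9 libraries, each against 4 of its own genotype, these counts were at most 13 and 20. List medians and many of the genes that turn on it are therefore also given without K556R 1_b1. The labels number the samples as repeats and do not say how they relate to mice, so a p-value reflects the variation among these libraries only.

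Prox1 mRNA was lower in each K556R library than in any wild-type library, but edgeR did not call the difference over all genes. In the order 1_b1, 2_b1, 3_b1, 4_b1 and 1_b2, the wild-type livers had 101, 96.5, 118, 119 and 138 CPM. In the order 1_b1, 2_b1, 1_b2, 2_b2 and 3_b2, the K556R livers had 85.7, 60.4, 81.7, 72.2 and 92.8 CPM. The highest K556R value, 3_b2, lay just under the lowest wild-type value, 2_b1. The means were 115 ± 16.6 and 78.6 ± 12.6 CPM (SD, n = 5 each), and with batch in the model the log2 change was −0.64 (SE 0.12, edgeR quasi-likelihood test, adjusted p = 0.317). With the same 10 libraries DESeq2 called Prox1 (adjusted p = 0.000642). So did limma voom with quality weights, which gives deviating libraries less weight (log2 change −0.77, adjusted p = 0.0209). Without K556R 1_b1 the change was −0.81 (SE 0.10) and Prox1 was called (edgeR, adjusted p = 0.0216). Within batch 1 the log2 change was −0.58 and within batch 2, where 1 wild-type library was available, −0.75. Of all 13525 genes tested, 94 (0.695%) had ranges that did not overlap between the 5 and 5 libraries, 26 with K556R above (0.192%) and 68 with K556R below (0.503%). In bulk liver, fewer cells of a type and less RNA per cell cannot be told apart from 1 gene. The 10 hepatocyte markers had a median log2 change of 0.02 with and without K556R 1_b1. Each member lay between −0.36 and 0.15 with all libraries. The markers summed to 128351 to 135404 CPM in wild type and 122523 to 140120 CPM in K556R.

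**Figure D1:**
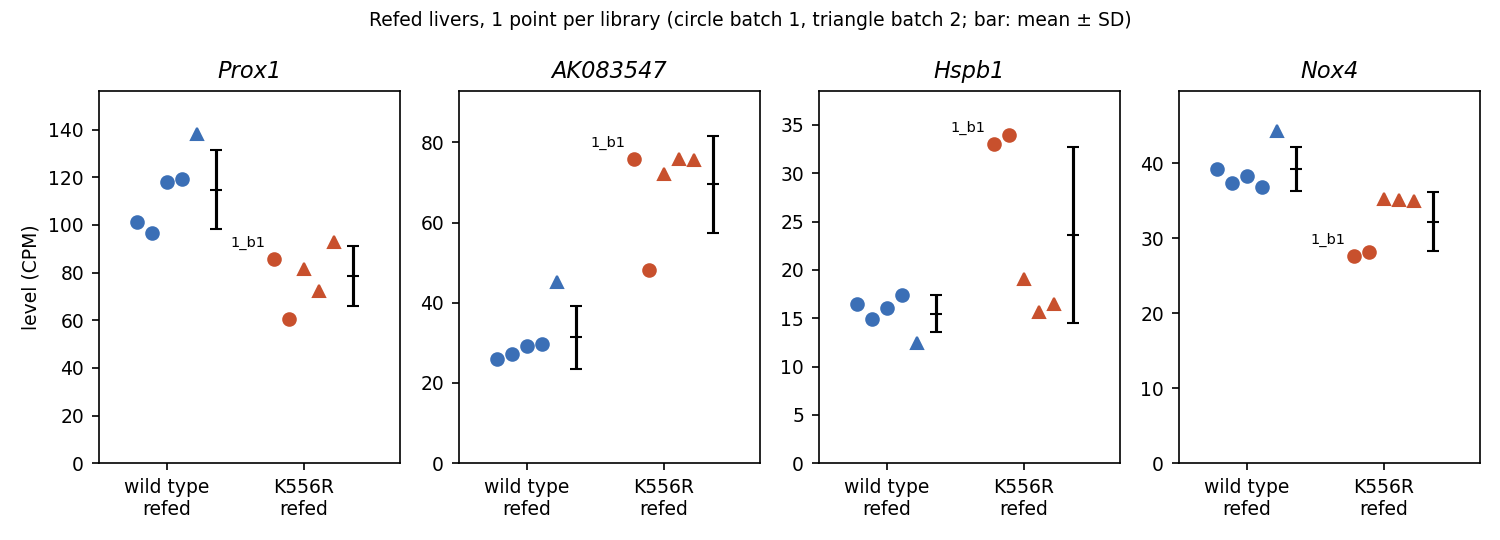
Level (CPM, linear axis from 0) of Prox1, AK083547, Hspb1 and Nox4 in each refed library, wild type in blue and K556R in red, circles for batch 1 and triangles for batch 2, with the mean and SD of 5 libraries as a bar. AK083547 lies higher and Prox1 and Nox4 lie lower in every K556R library than in every wild-type library, whereas Hspb1 is high only in the 2 K556R libraries of batch 1, among them 1_b1.

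Over all genes, 3 of 13525 were called in refed livers (0.0222%, edgeR quasi-likelihood test, Benjamini-Hochberg adjusted p under 0.05): AK083547 and Hspb1 rose (0.0148% of genes called higher) and Nox4 fell (0.00739% called lower) in K556R. An unadjusted p under 0.05 was reached by 832 genes (6.15%), 447 higher (3.3%) and 385 lower (2.85%). Without K556R 1_b1, edgeR again called 3 genes of 13560 (0.0221%), AK083547 and Mpst higher (0.0147%) and Prox1 lower (0.00737%). There 1675 genes (12.4%) reached an unadjusted p under 0.05, 1043 of them higher (7.69%) and 632 lower (4.66%). AK083547 was called in both. DESeq2 called 24 genes with all 10 libraries, 7 higher and 17 lower, and 106 without K556R 1_b1, 81 higher and 25 lower.

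AK083547, a transcript named after a cDNA clone and not placed in GENCODE M21, was about doubled. Its levels were 25.9, 27.1, 29.2, 29.6 and 45.2 CPM in wild-type livers and 75.8, 48.2, 72.2, 75.9 and 75.7 CPM in K556R. The K556R libraries other than 2_b1 clustered between 72.2 and 75.9 CPM, and 2_b1 lay closest to wild type 1_b2, with no overlap. The log2 change was 0.99 (SE 0.12, 1.99-fold, edgeR adjusted p = 0.0384), 1.15 within batch 1 and 0.72 within batch 2. Leaving out 1 library in turn, AK083547 remained called in 2 of 10 runs, without K556R 1_b1 (0.75, edgeR adjusted p = 0.000628) and without K556R 2_b1 (1.09, 0.0210). It was not called without any 1 of the other 8 (log2 change 0.96 to 1.14), with adjusted p of 0.175, 0.132, 0.195, 0.151 and 0.0660 for wild type 1_b1 to 4_b1 and 1_b2 and 0.145, 0.116 and 0.0935 for K556R 1_b2, 2_b2 and 3_b2.

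Hspb1 encodes the small heat shock protein HSP27, a chaperone that holds unfolded proteins (chromosome 5, 135887919 to 135889563, plus strand, GRCm38). Wild-type livers had 16.4, 14.9, 16.1, 17.4 and 12.4 CPM and K556R livers 33.0, 34.0, 19.1, 15.6 and 16.5 CPM. The 2 high values were the batch 1 libraries of K556R, and the 3 batch 2 libraries of K556R lay between 15.6 and 19.1 CPM, above the 1 wild-type library of their own batch but overlapping the wild-type libraries of batch 1. The log2 change was 0.84 (SE 0.11, 1.79-fold, edgeR adjusted p = 0.0384), 1.04 in batch 1 and 0.46 in batch 2. Of the 10 runs with 1 library left out, Hspb1 was called in the run without wild type 1_b2 (1.03, edgeR adjusted p = 0.00730). In the others adjusted p was 0.181, 0.132, 0.195 and 0.151 without wild type 1_b1 to 4_b1, 0.0647 without K556R 1_b1, 0.127 without 2_b1, and 0.145, 0.0964 and 0.0935 without 1_b2, 2_b2 and 3_b2.

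Nox4 encodes an NADPH oxidase that makes hydrogen peroxide (chromosome 7, 87246096 to 87398710, plus strand, GRCm38). Its levels were 39.2, 37.4, 38.3, 36.9 and 44.3 CPM in wild-type livers and 27.6, 28.1, 35.2, 35.1 and 34.9 CPM in K556R. Every K556R library lay below every wild-type library, and the batch 1 libraries of K556R were the lowest. Nox4 fell by 0.41 on the log2 scale (SE 0.052, edgeR adjusted p = 0.0384), with −0.45 within batch 1 and −0.34 within batch 2. Leaving out any 1 library ended this call (log2 change −0.46 to −0.39, edgeR adjusted p 0.0511 to 0.195; 0.0511 without K556R 1_b1). Without the batch term none of the 3 genes was called (edgeR, adjusted p 0.226 for AK083547 and 0.997 for Hspb1 and Nox4), nor were they when all 20 libraries were fitted together (0.191, 0.965 and 0.965).

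Mpst, called once K556R 1_b1 was left out and picked with its values in view, encodes mercaptopyruvate sulfurtransferase, an enzyme of cysteine breakdown that makes hydrogen sulfide. Its levels were 88.4, 90.2, 86.8, 81.7 and 78.2 CPM in wild-type livers and 52.8, 126, 108, 104 and 99.3 CPM in K556R. The low value was K556R 1_b1, and the other 4 K556R libraries lay above all wild-type libraries. The log2 change was 0.47 (SE 0.061, edgeR adjusted p = 0.0216) without K556R 1_b1 and 0.17 (SE 0.21, adjusted p = 0.913) with it. Without K556R 2_b1 it was −0.17 (edgeR, adjusted p = 0.767).

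The genes next in order of p were not called by edgeR and are given as values. On the higher side they were Ndrg1, a gene induced by stress and low oxygen (log2 change 0.79, SE 0.13, adjusted p = 0.238), the connexin gene Gjc3 (0.68, SE 0.14), Csad, which encodes the enzyme that makes hypotaurine for taurine synthesis (0.53, SE 0.11), Kctd17 (0.66, SE 0.145) and the zinc finger gene Zfp236 (0.25, SE 0.056). Without K556R 1_b1 these 5 stood at 0.76, 0.59, 0.54, 0.56 and 0.27. Ndrg1 had the same batch pattern as Hspb1: 11.0 and 11.7 CPM in the batch 1 libraries of K556R, 4.35 to 5.22 CPM in those of batch 2, at most 6.95 CPM in the wild-type libraries of batch 1 and 3.36 CPM in that of batch 2. Csad measured 318 CPM in both batch 1 libraries of K556R, against 204 to 268 CPM in wild type, and 215 to 290.0 CPM in batch 2, against 156 CPM.

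On the lower side came Lad1, the gene of ladinin, a basement membrane protein (−0.63, SE 0.10, adjusted p = 0.219), the SH2 domain gene Sh2d4a (−0.56, SE 0.098, adjusted p = 0.249), Prox1, Olfml1 (−0.50, SE 0.10) and the chromatin remodeller gene Chd2 (−0.29, SE 0.057). Sh2d4a measured 6.49 to 7.65 CPM in wild-type livers and 4.45 to 5.42 CPM in K556R, Lad1 7.03 to 9.83 and 5.15 to 6.75 CPM, and Chd2 52.3 to 62.3 and 42.5 to 51.7 CPM. These 3 genes separated the genotypes without overlap, as did 0.503% of all genes with K556R below. They were taken by low p in the same libraries, so the lack of overlap adds no support. Without K556R 1_b1 Lad1, Sh2d4a, Olfml1 and Chd2 stood at −0.67, −0.53, −0.40 and −0.26. DESeq2 called all of the genes named here as next in order except Zfp236 (adjusted p = 0.0508). Without K556R 1_b1 it called Zfp236 (0.0273) and lost Gjc3 (0.0929) and Kctd17 (0.123).

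To describe pathways, 39 gene lists were read against the median log2 change of all 13525 genes, 0.02, with 55.5% of genes above 0. Without K556R 1_b1 that median was −0.01, with 47.6% above 0. No member of any list was called by edgeR in either fit. Counts of members higher or lower below are counts of the sign of the log2 change and not of calls. The plot of list scores shows for each library the mean log2 CPM of the members, each relative to its own mean over the 10 libraries.

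**Figure D2:**
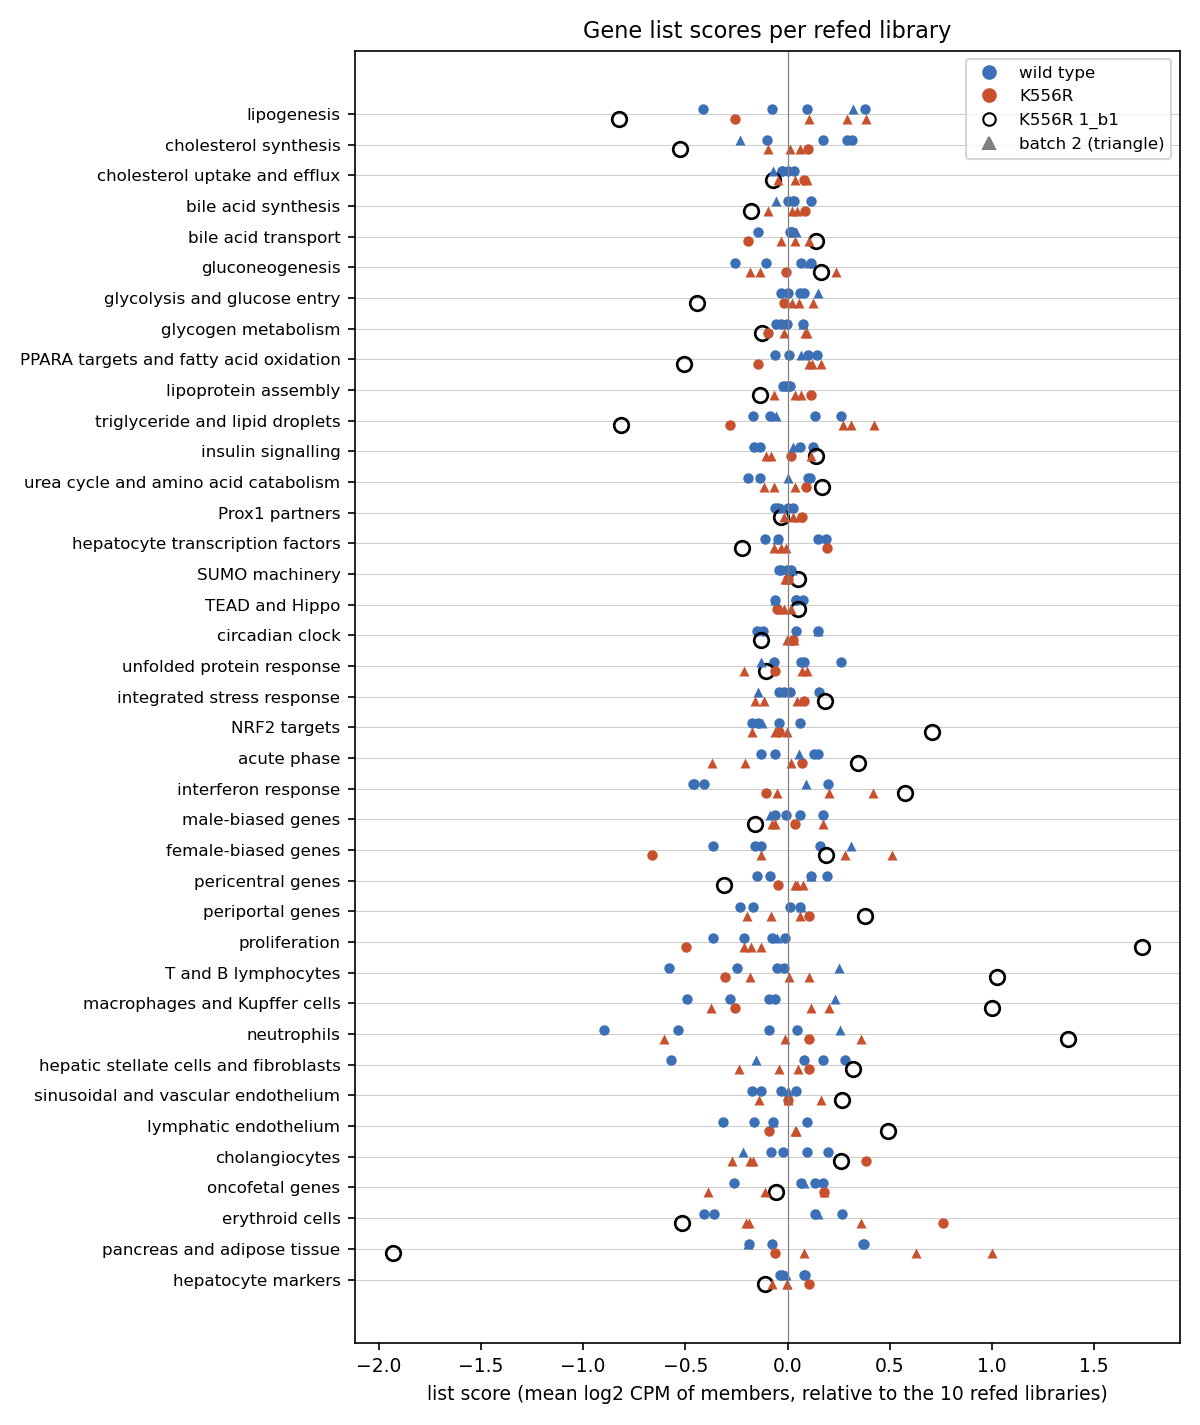
List score (mean over members of log2 CPM relative to the 10 refed libraries) of 39 gene lists in each refed library, wild type in blue above each line and K556R in red below it, with K556R 1_b1 as an open circle and batch 2 as triangles. K556R 1_b1 lies far from the other 9 libraries for proliferation (1.74), NRF2 targets (0.71) and others. It is lowest for lipogenesis (−0.82), where wild type reaches down to −0.415. The other 4 K556R libraries overlap the wild-type range in most lists.

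None of the genes of glucose use was called, and most lay lower in K556R. Of 15 members of the glycolysis list, 12 were lower and 3 higher, with a median log2 change of −0.14 (−0.05 without K556R 1_b1). An unadjusted p under 0.05 was reached by 6 members, 5 lower and 1 higher, against 6.15% of all genes. Without K556R 1_b1, 5 members were lower and 1 higher at that p, against 12.4% of all genes. Liver pyruvate kinase, Pklr, which makes the last step of glycolysis and is a classic target of ChREBP, measured 731, 558, 611, 780.4 and 911 CPM in wild-type livers and 262, 445, 635, 769 and 696 CPM in K556R. The 2 batch 1 libraries of K556R lay below all wild-type libraries, and those of batch 2 lay below the 1 wild-type library of that batch. The log2 change of Pklr was −0.73 (SE 0.18, edgeR adjusted p = 0.726), −0.92 within batch 1 and −0.38 within batch 2, and −0.49 without K556R 1_b1.

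Slc2a2, the glucose transporter GLUT2, stood at −0.47 (SE 0.13, −0.28 without K556R 1_b1). Pfkfb1, the enzyme that makes and removes fructose 2,6-bisphosphate, was the 1 member whose ranges did not overlap. It measured 59.4 to 68.3 CPM in wild-type livers and 33.7 to 58.6 CPM in K556R, where 1_b1 was lowest. Of all genes, 0.503% had K556R below wild type without overlap. The log2 change of Pfkfb1 was −0.39 (SE 0.13, edgeR adjusted p = 0.77, −0.19 without K556R 1_b1). DESeq2 called Pklr with all 10 libraries (adjusted p = 0.0140) and without K556R 1_b1 (0.0173). The 1 higher member with an unadjusted p under 0.05, phosphofructokinase Pfkl, stood at 0.19 (SE 0.086) and at 0.29 without K556R 1_b1.

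Fatty acid synthesis genes were lower in 18 of 20 members (median −0.37), 6 of them with an unadjusted p under 0.05. Of all genes, 2.85% were lower at that p. Thrsp, which encodes the lipogenic regulator Spot 14, measured 1344, 1419.8, 1316, 1504 and 1966 CPM in wild-type livers and 303, 917, 1410.1, 1603 and 1199 CPM in K556R. The batch 1 libraries of K556R were the lowest, 1_b1 by a wide margin, and those of batch 2 lay below the 1 wild-type library of that batch. Its log2 change was −0.95 (SE 0.30, edgeR adjusted p = 0.77), −1.20 within batch 1 and −0.49 within batch 2, and −0.55 (SE 0.10) without K556R 1_b1. Malic enzyme, Me1, which supplies NADPH, stood at −0.77 (SE 0.24), the elongase Elovl6 at −0.67 (SE 0.21) and acetyl-CoA carboxylase, Acaca, at −0.39 (SE 0.13). Without K556R 1_b1 they stood at −0.56, −0.95 and −0.40. Over the list, 15 of 20 members were lower then, with a median of −0.13. Of these, 3 had an unadjusted p under 0.05, against 4.66% of all genes lower at that p in the same fit. DESeq2 called Thrsp and Elovl6 without K556R 1_b1 (adjusted p = 0.000187 each) and not with it (0.0543 and 0.148). The transcription factor genes Srebf1 (0.05, SE 0.17) and Mlxipl, which encodes ChREBP (−0.12, SE 0.19), were within 1 SE of 0, and without K556R 1_b1 they stood at 0.25 and −0.02. List scores were −0.415 to 0.379 in wild type, −0.82 in K556R 1_b1 and −0.257 to 0.383 in the other K556R libraries, so those 4 overlapped the wild-type range.

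**Figure D3:**
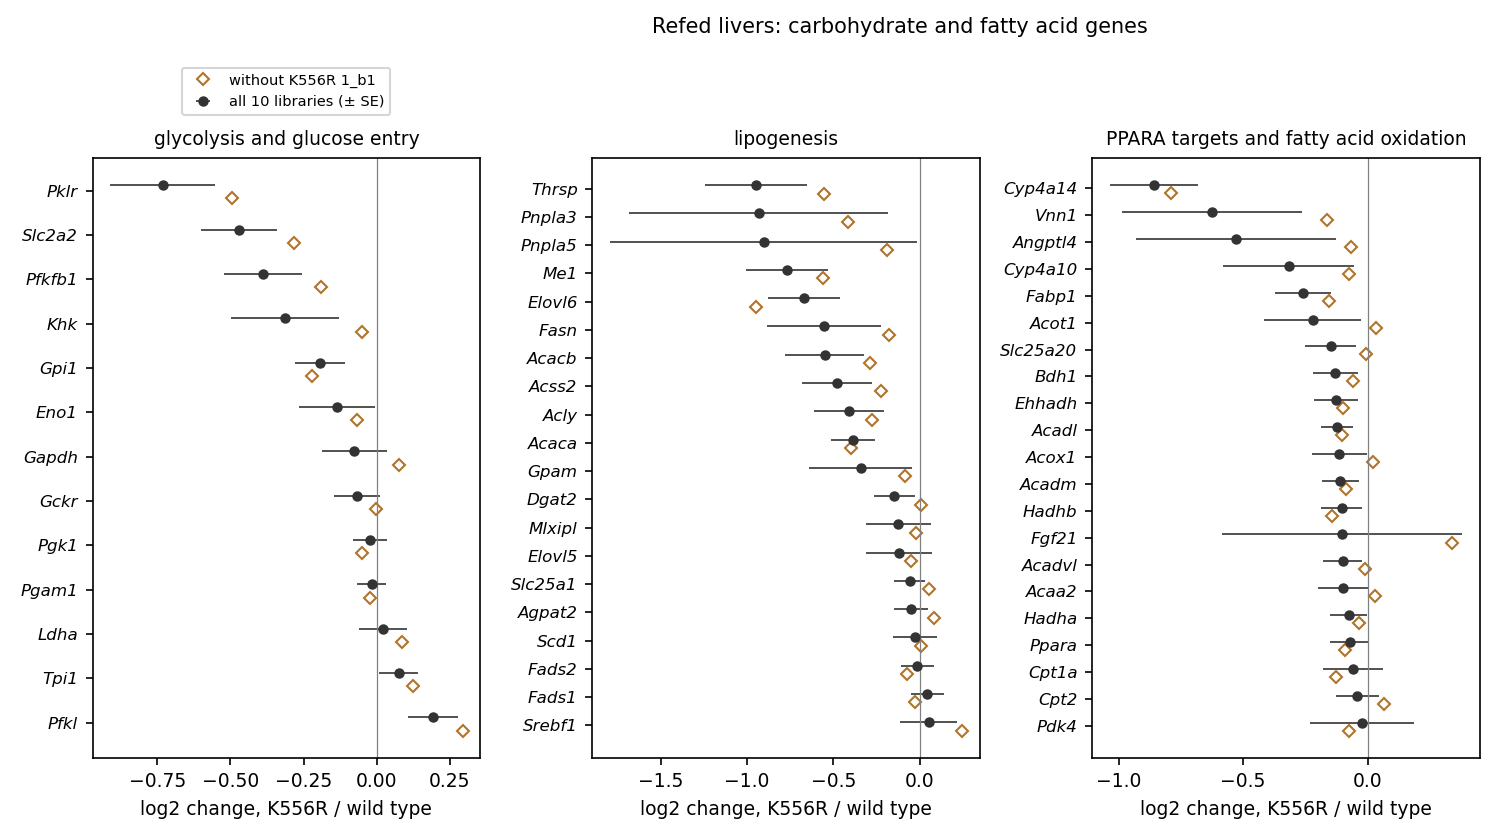
Log2 change (K556R over wild type, refed) of the members reported here of the lists for glycolysis and glucose entry, lipogenesis, and PPARA targets with fatty acid oxidation: filled points with SE from all 10 libraries, open diamonds without K556R 1_b1. Most points lie below 0, none was called by edgeR, and many diamonds lie closer to 0, among them Thrsp (−0.55 against −0.95) and Angptl4 (−0.07 against −0.53), while Elovl6 is lower without that library (−0.95 against −0.67).

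The genes of fatty acid oxidation and other targets of the fasting receptor PPARA lay on the same side. All 22 members were below 0, with a median of −0.12 (17 of 22 and −0.07 without K556R 1_b1). An unadjusted p under 0.05 was reached by 2 members, against 6.15% of all genes. Without K556R 1_b1 it was reached by 1 member, against 12.4% of all genes. List scores were −0.51 and −0.14 in K556R 1_b1 and 2_b1, against −0.062 to 0.146 in wild type. In batch 2 they were 0.164, 0.106 and 0.120 in K556R, above the 0.065 of wild type 1_b2. Cyp4a14, a fatty acid omega-hydroxylase, measured 206, 215, 241, 283 and 229 CPM in wild-type livers and 114, 116, 197, 170.3 and 111 CPM in K556R. No K556R library reached the lowest wild-type value. Its log2 change was −0.86 (SE 0.18, edgeR adjusted p = 0.531), −1.04 in batch 1, −0.53 in batch 2, and −0.79 (SE 0.24) without K556R 1_b1, and the DESeq2 call with all 10 libraries (adjusted p = 0.000764) was lost without that library (0.0905). It shares sequence with the other Cyp4a genes, whose reads the counting could have split. The fatty acid binding protein gene Fabp1 stood at −0.26 (SE 0.11) and Ppara itself at −0.07 (SE 0.077). Without K556R 1_b1 they stood at −0.16 and −0.09.

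Glycogen genes were lower in 10 of 13 tested members (median −0.04, −0.10 without K556R 1_b1). The lowest p values belonged to Ugp2, which makes UDP-glucose (−0.30, SE 0.093), and to liver glycogen synthase, Gys2 (−0.25, SE 0.090). Without K556R 1_b1 they stood at −0.37 and −0.34. In gluconeogenesis 7 of 11 members were higher and 4 lower (median 0.03, and 0.03 without K556R 1_b1). Slc37a4, the glucose 6-phosphate transporter, stood at −0.29 (SE 0.085), and at −0.21 without K556R 1_b1. Pck1, which encodes the PEP carboxykinase, stood at 0.29 (SE 0.43) and glucose 6-phosphatase, G6pc, at −0.27 (SE 0.23), with 613 to 2486 CPM for Pck1 over the K556R libraries. Insulin signalling genes were split 9 higher to 7 lower (median 0.00, −0.04 without K556R 1_b1), with Irs1 at 0.13 (SE 0.088). The amino acid and urea cycle list was higher in 12 of 16 members (median 0.08, 0.00 without K556R 1_b1), with histidine ammonia-lyase, Hal, at 0.27 (SE 0.098) with and without that library.

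The list median of cholesterol synthesis changed sign when K556R 1_b1 was left out. With all libraries 17 of 21 members were lower (median −0.19). Without that library 12 of 21 members were higher and the list median was 0.04. Cholesterol uptake and efflux genes were higher in 13 of 18 members (median 0.05, 0.12 without K556R 1_b1), with the sterol transporter gene Abcg8 at 0.39 (SE 0.15) and the SREBP retention factor Insig1 at −0.25 (SE 0.10). Without K556R 1_b1 they stood at 0.165 and −0.16.

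Bile acid synthesis genes were split 7 higher to 11 lower (median −0.04, 0.03 without K556R 1_b1). Cyp7a1, the first enzyme of that route, stood at 0.02 with an SE of 0.36, and at −0.57 without K556R 1_b1. Among 11 tested bile acid transporters (median 0.05, −0.13 without K556R 1_b1), the 3 uptake carriers Slc10a1 (−0.41, SE 0.12), Slco1b2 (−0.39, SE 0.12) and Slco1a1 (−0.31, SE 0.11) had an unadjusted p under 0.05. Slc10a1, the sodium-dependent carrier NTCP, measured 713 to 917 CPM in wild type, 453 CPM in K556R 1_b1 and 676 to 825 CPM in the other K556R libraries. These 3 stood at −0.25, −0.35 and −0.20 without K556R 1_b1.

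Lipoprotein genes were lower in 10 of 16 members (median −0.05, 0.04 without K556R 1_b1), with the transfer protein gene Mttp at −0.22 (SE 0.079) and, without that library, at −0.18. Of the triglyceride and lipid droplet genes 14 of 19 were lower (median −0.10, 0.05 without K556R 1_b1). The phosphatidate phosphatase genes Lpin2 (−0.50, SE 0.15) and Lpin1 (−0.76, SE 0.31) were its only members with an unadjusted p under 0.05 and stood at −0.35 and −0.38 without K556R 1_b1. Cd36, a fatty acid transporter gene, stood at −0.42 (SE 0.28) and at −0.39. Lpin2 measured 361 to 507 CPM in wild-type livers and 247 to 413 CPM in K556R, where 3_b2 was the only library above 309 CPM.

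No partner of Prox1 and no gene of the SUMO machinery had an unadjusted p under 0.05 with all 10 libraries. Of 12 tested partners 7 were higher and 5 lower (median 0.04, 0.02 without K556R 1_b1), with the histone deacetylase gene Hdac3 at −0.07 (SE 0.060), the nuclear receptor LRH1, Nr5a2, at 0.08 (SE 0.088) and Hnf4a at 0.03 (SE 0.063). Nr5a2 stood at −0.02 without K556R 1_b1. In the SUMO machinery 10 of 18 members were higher (median 0.02, −0.04 without K556R 1_b1). Sumo3 stood at 0.13 (SE 0.067) and the protease gene Senp1 at 0.11 (SE 0.096). They stood at 0.12 and −0.004 without K556R 1_b1. Hepatocyte transcription factors were split 7 to 8 (median −0.04, 0.04 without K556R 1_b1). The bile acid receptor gene Nr1h4 stood at −0.18 (SE 0.086) and, without that library, at −0.10. The TEAD and Hippo list was split 9 to 7 (median 0.02, −0.01 without K556R 1_b1). Tead1, a partner of YAP chosen with earlier results of these data known, stood at −0.18 (SE 0.12) and at −0.36 (SE 0.093) without K556R 1_b1.

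The NRF2 list was highest in K556R 1_b1. NRF2 drives antioxidant genes, and all 14 of its targets were above 0 (median 0.23), against 9 of 14 (median 0.03) without that library. Its list score was 0.71, against −0.17 to 0.06 in wild type and −0.17 to −0.0043 in the other K556R libraries. The glutathione transferase gene Gstm1 was high in both batch 1 libraries of K556R, at 1636 and 1503 CPM against 1062 to 1187 CPM in wild type, and at 1041 to 1136 CPM in batch 2 (log2 change 0.31, SE 0.097, edgeR adjusted p = 0.77, 0.21 without 1_b1). Gsta1 measured 16.4 CPM in K556R 1_b1 and at most 2.68 CPM in any other refed library, and these genes have near-identical copies.

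All 16 interferon response genes were also above 0 (median 0.30), 11 of 16 without K556R 1_b1 (median 0.14). Rsad2, the antiviral protein viperin, measured 4.91, 4.67, 5.35, 11.3 and 7.47 CPM in wild-type livers and 15.1, 9.19, 9.24, 9.26 and 11.7 CPM in K556R (0.72, SE 0.27, edgeR adjusted p = 0.793, 0.45 without 1_b1). The groups overlapped through wild type 4_b1. Of the acute phase genes 7 of 16 were higher (median −0.01, −0.05 without K556R 1_b1). Haptoglobin, Hp, a plasma protein that binds free hemoglobin, measured 1674 to 2068 CPM in wild-type livers and 2029 to 2395 CPM in K556R (0.30, SE 0.072, edgeR adjusted p = 0.7), and 0.32 without K556R 1_b1. DESeq2 called Hp with that library (adjusted p = 0.00254) and without it (0.00369).

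The unfolded protein response was lower in 10 of 16 members (median −0.04, −0.02 without K556R 1_b1), with the cochaperone gene Dnajb9 at −0.31 (SE 0.15) and, without that library, at −0.33. In the integrated stress response 7 of 13 were higher (median 0.01, 0.03 without K556R 1_b1). Its asparagine synthetase gene, Asns, measured 23.8 CPM in K556R 1_b1 and 1.17 to 3.77 CPM in the other 9 libraries, and its log2 change was 1.85 with and 0.15 without it. Clock genes were lower in 11 of 17 members (median −0.09, −0.02 without K556R 1_b1). Npas2, a clock activator, stood at 1.45 (SE 0.59). Its level was 2.37 CPM in K556R 2_b1 and 0.227 to 0.65 CPM in the other K556R libraries. With 1 library left out in turn, its log2 change ran from 0.37 to 2.06. Bhlhe40, Gm129 and Per3 of the same list stood at −0.47, −0.49 and −0.39.

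Sex-biased genes were split evenly and zonated genes were not. Male-biased genes were split 9 to 7 (median 0.00, 0.05 without K556R 1_b1). Mup20 stood at 0.42 (SE 0.17) and Susd4 at −0.42, and without K556R 1_b1 Mup20 stood at 0.12. Unlike Mup20, Mup17 and Mup11 were lowest in that library. Female-biased genes were split 5 to 5 of 10 tested (median 0.00), and 9 of 10 were lower without that library (median −0.27). Cyp2a4, a steroid hydroxylase gene of that list with near-identical relatives, measured 164 CPM in K556R 1_b1 and 1.68 to 8.90 CPM in the other 9 libraries. Genes of hepatocytes near the central vein were lower in 12 of 15 members (median −0.15, −0.09 without K556R 1_b1), with glutamine synthetase, Glul, at −0.44 (SE 0.19) and Cyp2e1 at −0.36 (SE 0.15), and at −0.17 and −0.18 without that library. Periportal genes were higher in 12 of 14 (median 0.14, 0.02 without K556R 1_b1).

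Markers of other cells moved with K556R 1_b1. Macrophage and Kupffer cell markers were above 0 in 15 of 15 members (median 0.35), and their summed level was 109 to 179.6 CPM in wild type, 281 CPM in K556R 1_b1 and 125 to 169 CPM in the other K556R libraries. Proliferation genes were above 0 in 15 of 16 tested members (median 0.88), with sums of 52.8 to 59.5, 158 and 48.8 to 56.6 CPM, and Mcm6, a subunit of the replicative helicase, measured 28.2 CPM in K556R 1_b1 against 2.85 to 4.97 CPM elsewhere. Without that library 11 of 15 macrophage markers and 16 of 16 proliferation genes were below 0 (medians −0.14 and −0.21). Lymphocyte markers behaved alike (7 of 8 tested above 0, median 0.37; 7 of 8 below 0, median −0.21, without it), with sums of 6.27 to 8.41, 15.6 and 6.07 to 8.13 CPM. The part of these cells in the changes of the metabolic and stress lists was not tested.

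The remaining marker lists were smaller or closer to 0. The median log2 change was 0.10 for 14 tested stellate and fibroblast markers (0.05 without K556R 1_b1), 0.16 for 13 endothelial markers (0.02), 0.16 for 3 lymphatic markers (0.06) with Ccl21a at 0 in all refed libraries, and 0.21 for 8 cholangiocyte markers (0.16). It was 0.73 for 2 neutrophil markers (0.05), 0.25 for 3 erythroid genes (0.51), −0.07 for 5 oncofetal genes (−0.04) and −0.30 for 3 genes of pancreas and adipose tissue (0.12). Of the 11 pancreas and adipose genes 5 were at 0 in all refed libraries. Summed levels reached 4.33 CPM for neutrophils and 5.98 CPM for oncofetal genes, both in K556R 1_b1.

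The genes that set K556R 1_b1 apart are described without a test, since they were taken by their distance from the other 4 K556R libraries. Highest were Mmd2 (43.7 CPM, 6.03 to 12.8 CPM in the other K556R libraries), cyclin D1, Ccnd1 (62.4, 8.23 to 13.2), the chemokine gene Cxcl9 (32.6, 4.23 to 8.08), Saa2 (32.1, 4.41 to 13.8), Acmsd (122, 19.9 to 35.7), the immunoglobulin entry abParts (94.8, 14.6 to 47.8), Ugt1a9 (99.6, 24.6 to 36.4) and Gstm3 (162, 41.7 to 54.4). Lowest were the major urinary protein genes Mup17 (0.728, 40.1 to 278), Mup11 (2.28, 74.0 to 140.3), Mup1 (0.236, 4.16 to 14.5), Mup14 (2.70, 18.1 to 111) and Mup19 (1.38, 8.39 to 25.1), Cyp2b9 (0.453, 9.70 to 35.1), Serpina12 (6.75, 94.8 to 137) and Slc22a7 (2.58, 27.2 to 35.6). The highs thus include cell cycle, immune and detoxification genes, and the lows are mostly secreted proteins whose gene families share sequence.

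The refed effect was then set against the fasted one, which rests on 10 other libraries. No gene was called in fasted livers (edgeR, 0 of 13294, 881 or 6.63% at an unadjusted p under 0.05), and none had a difference between the refed and fasted effects that passed (0 of 13894, 553 or 3.98% at an unadjusted p under 0.05). DESeq2 called 1 gene for that difference, Dak. Across 13128 genes the refed and fasted log2 changes had a Spearman correlation of 0.252, given as a description because genes are not independent and each comparison shares its own libraries and batches. The levels in this and the next paragraph are scaled over all 20 libraries and so differ slightly from those above. Fasted livers had 185 ± 38.5 CPM of Prox1 when wild type and, when K556R, 105 ± 15.7 CPM (SD, n = 5 each), a log2 change of −0.81 (SE 0.16) against −0.64 refed, and AK083547 stood at 1.07 (SE 0.18) against 0.99. Nox4 stood at −0.45 (SE 0.15) fasted against −0.41 refed. Hspb1 stood at −0.07 (SE 0.32) fasted against 0.84 refed, each from the fit of its own 10 libraries. In the fit of all 20 libraries its refed change was 0.76. The difference between its refed and fasted effects there, 0.81 (SE 0.35), did not pass (edgeR, adjusted p = 0.9997).

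In fasted livers Pklr stood at 0.17, Thrsp at 0.14 and Me1 at 0.27. Apart from Cyp4a14, fasted values of the other metabolic genes named above are not reported here. Pklr was 276 ± 49.4 CPM in wild-type livers and 313 ± 94.0 CPM in K556R when fasted and 689.7 ± 134 and 541 ± 203 CPM when refed (SD, n = 5 each). Thrsp was 311 ± 108 and 338 ± 119 CPM fasted and 1450.0 ± 255 and 1049 ± 496 CPM refed. The differences between the refed and fasted effects were −0.85 (SE 0.22) for Pklr, −1.06 (SE 0.33) for Thrsp and −0.97 (SE 0.27) for Me1. None passed the test over all genes. K556R refed 1_b1 entered these differences, and their values without it are not reported here. In the fits of refed libraries alone, leaving that library out moved Pklr from −0.73 to −0.49. Thrsp moved from −0.95 to −0.55 and Me1 from −0.77 to −0.56. Cyp4a14 measured 848 ± 480.0 CPM in wild-type livers and 1849 ± 379.6 CPM in K556R when fasted. Refed, it measured 226 ± 27.9 and 136 ± 39.5 CPM (SD, n = 5 each), so the effects differed by −1.85 (SE 0.50). Its fasted wild-type libraries ran from 244 to 1255 CPM, with 1_b2 lowest. Dak, the older symbol of the triose kinase gene of fructose breakdown, had the lowest p for the difference, −0.62 (SE 0.13). Dak was picked with its values in view. All of these differences had an adjusted p of 0.9997 (edgeR).

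**Figure D4:**
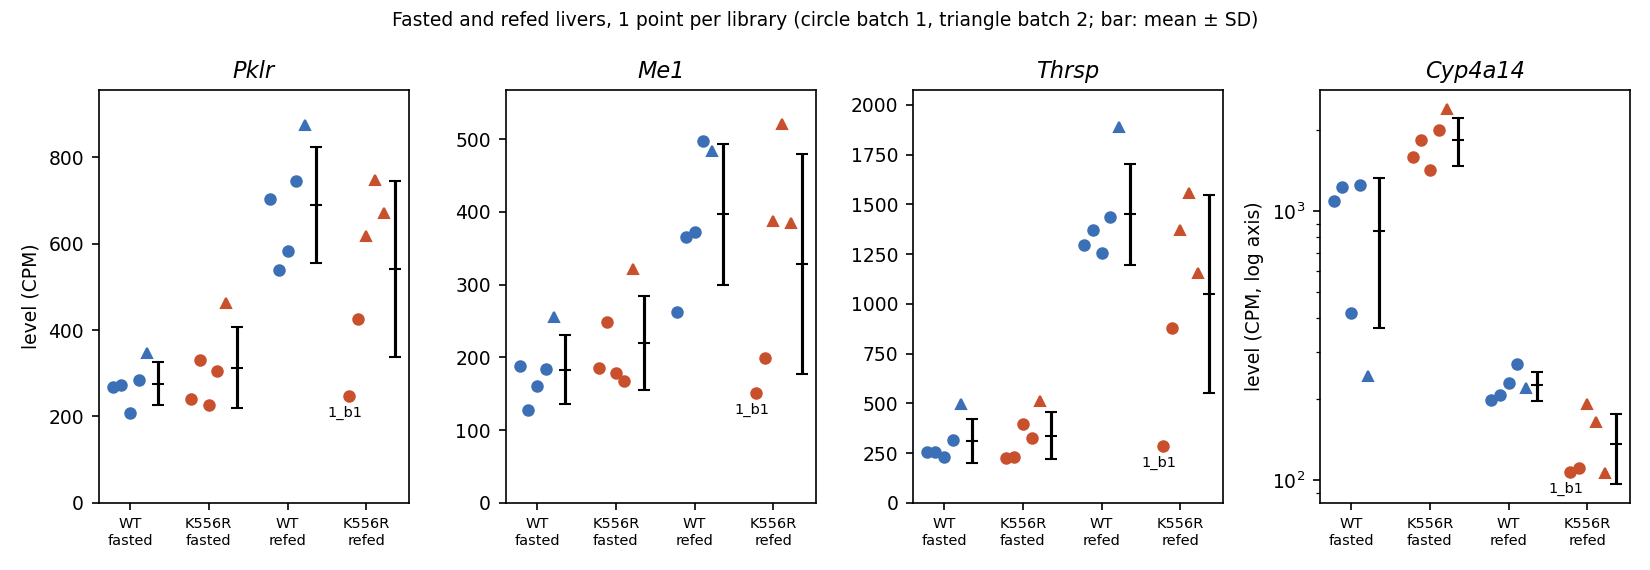
Level (CPM, scaled over 20 libraries, linear axis from 0 except the log axis of Cyp4a14) of Pklr, Me1, Thrsp and Cyp4a14 in each fasted and refed library, circles for batch 1 and triangles for batch 2, with the mean and SD of 5 libraries as a bar. The means of Pklr and Thrsp are higher refed than fasted in both genotypes, K556R refed 1_b1 lies at or near the fasted level for both, and Cyp4a14 lies higher in K556R than in every wild-type library when fasted and lower when refed.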

How the data were processed

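The authors deposited a table of raw read counts for 29915 genes in 20 libraries of poly-A RNA from liver. The build was mm10 and the tools listed were HTSeq, STAR, STAR-Fusion, TopHat, edgeR and DESeq2, per the submitters' processing notes. Which tool made the counts, and with which version and strand setting, is not given in the sources used here, so reads of overlapping antisense genes cannot be told apart, and near-identical families (Cyp2a, Cyp2b, Cyp4a, Gst, Mup) are uncertain.

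The 10 refed libraries were fitted with genotype and batch by edgeR 4.0.16 in R 4.3.3 (quasi-likelihood F test, robust dispersion, TMM, filterByExpr with a minimum count of 10 and a minimum total of 15, Benjamini-Hochberg over all genes tested, threshold 0.05). The steps were tested on simulated data without a batch effect or a deviating library. That test therefore does not cover these features of the refed libraries. Fits with DESeq2 1.42.0, limma 3.58.1 (voom with quality weights), other filters and designs, and each library left out are in the closing section. Difference and fasted values came from fits of all 20 libraries and of the 10 fasted libraries.

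Members and lists (39 lists, 580 entries) were chosen with earlier results of these data known. Named were Prox1, called genes filled up to 6 a direction by p, up to 4 members of each list with the lowest p, AK083547, Lad1, Olfml1 and Tead1, and 8 genes a direction for K556R 1_b1. Mpst, Dak and further list members such as Pfkl, Srebf1, Mlxipl, Angptl4, Ppara, Pck1, Cyp7a1, Cd36 and Hnf4a were added after their values were seen. Values of some list members are not reported here.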

Additional observations from a re-analysis of the deposited data

Results flagged for a closer look

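In 46 of 396 groups of 5 libraries that were examined (CPM of named genes and list scores), 1 library lay far from the other 4 of its genotype, judged by its gap to the nearest library divided by the range of the group (Dixon's test). Chance alone would mark about 1 in 20 groups of independent, normally distributed values. The groups here mix batches and share libraries, so the number marked cannot be judged against that share. The values in parentheses are this ratio.

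K556R 1_b1 accounted for most of them. It was highest for genes of DNA replication, Mcm2 (0.868), Mcm3 (0.88), Mcm5 (0.935) and Mcm6 (0.961), and for Asns (0.963) and Mthfd2 (0.778) of the integrated stress response list. It was also highest for Agxt2l1 (0.915), Aldh1b1 (0.825), Cyp2a4 (0.956), Gsta1 (0.9), Srxn1 (0.924), Hsd17b13 (0.786) and Mup20 (0.728). The same held for Clec4f (0.711), Lck (0.836), Lyve1 (0.815), Cd24a (0.746), Rgs5 (0.75), Il1rn (0.775), Gjc3 (0.768), Ostb (0.848) and Senp1 (0.784). It was lowest for Pfkfb1 (0.724), Pygl (0.722), Fdps (0.801), Ttr (0.802) and Cela1 (0.826). Its list scores stood apart upward for proliferation (0.835), NRF2 targets (0.808), lymphatic endothelium (0.767) and the SUMO machinery (0.766), and downward for the circadian clock (0.781) and glycolysis (0.75).

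Other libraries were marked less often. AK083547 was highest in wild type 1_b2 (0.805) within its genotype and lowest in K556R 2_b1 (0.868), the libraries that came closest to each other. K556R 2_b1 was also lowest for Lats1 (0.805) and Pik3ca (0.72) and highest for Npas2 (0.802), and K556R 1_b2 was highest for Lad1 (0.827). In wild type, 1_b2 was highest for Thrsp (0.711), 1_b1 for Aass (0.843) and Amacr (0.735), 2_b1 for Aldh1a1 (0.718) and 3_b1 for Krt19 (0.804). The score of bile acid transport was lowest in wild type 3_b1 (0.862) and that of oncofetal genes in wild type 2_b1 (0.755).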

How the results depend on the processing

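Of the 3 genes called with all 10 libraries, the number was the same with relative log expression size factors, a stricter filter and dispersion without robust estimation. DESeq2 called 24 genes, 7 higher and 17 lower. Limma voom with quality weights called 3, 1 higher and 2 lower (AK083547, Nox4 and Prox1), so that Hspb1 was lost (adjusted p = 0.0753). Without a filter on low counts 2 were called, 2 higher and 0 lower. Without the batch term 0 were called, 0 higher and 0 lower, with 439 at an unadjusted p under 0.05, and with all 20 samples in the fit 0, 0 higher and 0 lower, with 693. Batch 1 alone gave 1 call, 1 higher and 0 lower, and batch 2 alone 11, 3 higher and 8 lower. Leaving out each library in turn gave 0 to 3 calls, 0 to 2 higher and 0 to 1 lower. Without K556R 1_b1, DESeq2 called 106 genes, the fit without batch 0 and the fit with 19 samples 0, and leaving out a further library gave 0 to 16. For the difference between refed and fasted effects DESeq2 called 1 gene and edgeR 0 under its other settings.

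With a replicate block (repeat number within batch) 0 genes were called, 0 higher and 0 lower, with 352 at an unadjusted p under 0.05. Residuals of libraries with the same number correlated at −0.23, 0.035 and −0.47. Fitting genotype and batch ties the residuals of a batch to each other, so these correlations cannot decide whether the numbers pair the samples.

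Of 3345 recomputed values of 160 named genes, 97 changed sign, in 60 genes. The 3 genes called with all 10 libraries were not among them, whereas Mpst, called without K556R 1_b1, was (−0.17 without K556R 2_b1). Of 429 recomputed list medians 58 changed sign, in 23 of 39 lists. Batch 2 holds 1 wild-type refed library, so the spread of wild type within batch 2 was not measured.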
